A study of Rattus norvegicus with 8 samples.

Results

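The liver of 21-day-old control rats was compared, gene by gene, with a universal reference RNA made from 14 rat cell lines. The 4 arrays of the control group were used, of the 8 arrays given here, and no array of the mixture-treated group entered any value. The pups were male Sprague-Dawley rats whose dams had received only corn oil, the vehicle of the study, and which had stayed with their birth mothers. RNA from 2 pups was pooled for each array, so the 4 liver pools, numbered 5 to 8 by the submitters, stand for 8 animals. Liver cRNA carried Cy5 and reference cRNA carried Cy3 on every array, so dye bias cannot be told apart from a difference between liver and reference. The pools are separate pairs of pups by the labels, which do not say whether pups of different pools shared a litter. The reference is a common RNA with no spread of its own in these tests, and the labels do not name the 14 lines.

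The liver is the main source of plasma proteins, and its hepatocytes also make bile acids, store and release glucose, turn amino nitrogen into urea and chemically modify drugs and hormones for excretion. At weaning the diet changes from fat-rich milk to starch-rich chow, and the liver is passing from its fetal to its adult set of genes. A pool of cultured cell lines is a useful contrast, because cells kept dividing on plastic usually lose the genes of their tissue of origin and keep those for division, attachment and motility. A ratio against such a pool therefore describes both what liver has and what cultured cells have, and says nothing about the amount of a transcript in liver alone.

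Each value below is a log2 ratio of liver over reference, so 1 stands for a 2-fold and 3 for an 8-fold higher signal in liver, and negative values for a higher signal in the reference. A gene was tested when its probe was well above background, by the scanner software's own mark, in liver on at least 3 arrays or in the reference on at least 3 arrays. Of 30367 probes, 18005 carried a gene symbol, and the tested set held 16732 genes or unnamed probes, 10528 of them with a symbol. A gene was called when its ratio differed from 0 by more than 1 on the log2 scale at an adjusted p under 0.05 in limma's two-sided test against that minimum difference. With this rule 1367 genes were called higher in liver, 8.17% of those tested, and 994 were called lower, 5.94% (14.1% in either direction). Each count of group members below is to be read against these shares. Counts under median centring (each array centred on its median in place of loess) are to be read against that setting's totals. These were 803 genes called higher and 4232 called lower of 16732. Without the minimum difference, limma called 11004 genes, 65.8% of those tested. The median ratio over all genes tested was -0.07.

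Signal strength set what could be measured. Median foreground signals of 83 to 93 in Cy5 stood over a median background of 68 to 73, and 45.4% to 47.8% of spots were well above background in liver against 64.3% to 67.8% in the reference. In both channels on all 4 arrays, 9976 genes could be measured, and 1196 of these were called higher and 701 lower. A further 193 genes had no reference array above background (106 called higher), and 4442 had no liver array above background (197 called lower). For those genes the fold is given as a lower bound, and a call among them was open only in the direction of the visible channel. The 4 pools agreed closely, with Pearson correlations of 0.939 to 0.987 across genes, which are not independent replicates. Arrays sharing the first number of their slide position correlated at 0.981 and 0.987 and the others at 0.939 to 0.961. Between those positions (pools 5 and 7 against pools 6 and 8) 3701 genes, 22.1%, differed in limma at an adjusted p under 0.05. Within the first position 1613 genes were called higher and 1275 lower, and within the other 1524 and 1194.

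The labelled tissue matched its defining genes. Of 16 hepatocyte markers, all tested, 15 were called higher, with a median ratio of 6.79. The exception was Hnf4a, a master transcription factor of hepatocytes, at 0.86, 1.08, 0.49 and 1.06 in pools 5, 6, 7 and 8 (mean 0.87, adjusted p = 1). Hnf4a was above background in all 4 liver pools and in the reference on 1 array. With the scanner's processed signals it read 3.71 and was called (adjusted p = 0.000713, limma).

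**Figure D1:**
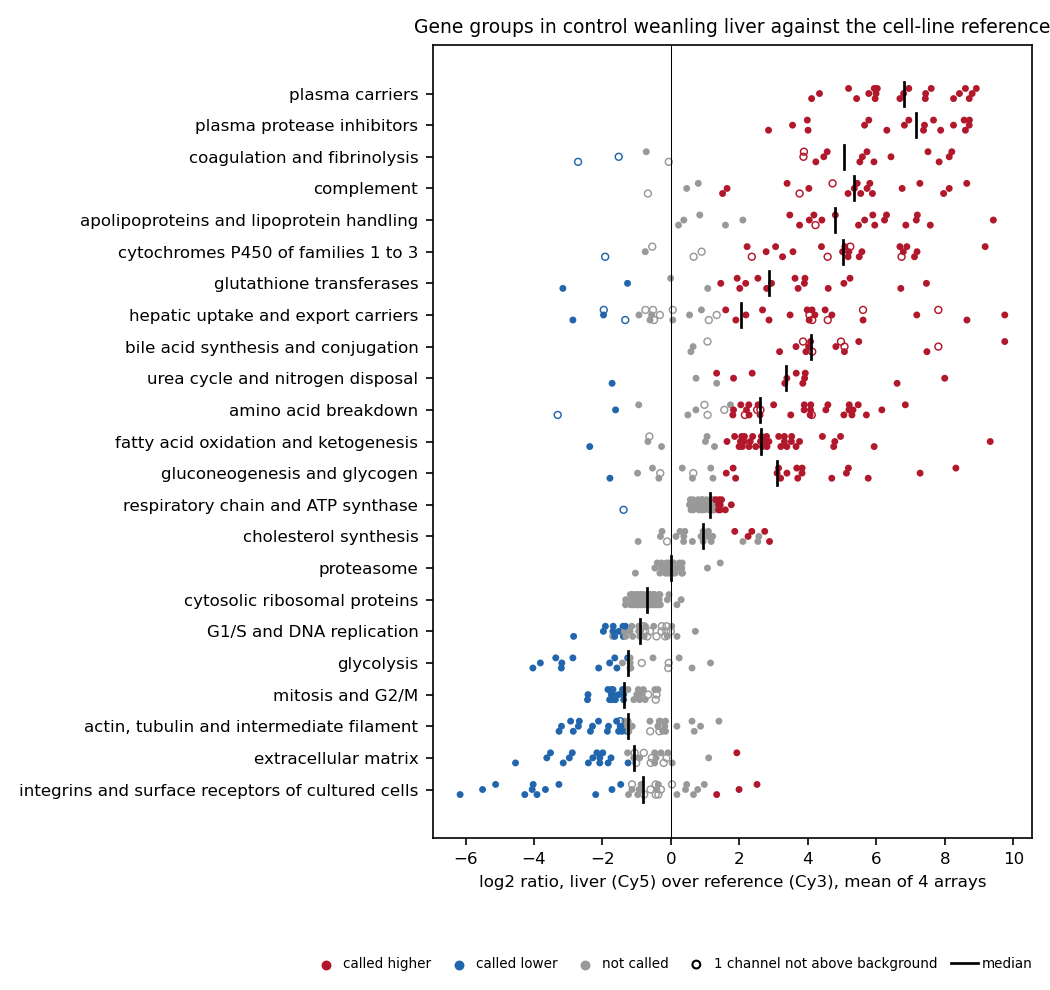
Mean log2 ratio of liver over reference for each tested member of 23 gene groups (1 dot per gene, 4 arrays each), with the median of each group as a bar. Secreted plasma proteins lie between 2.85 and 8.92 in the top 2 groups, ribosomal proteins between -1.33 and 0.30, and the called genes of the bottom groups lie mostly below -1.

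The largest ratios belonged to proteins that liver secretes and to enzymes and carriers that define it. Among genes with a symbol that were measured in both channels on all arrays, 153 were called higher with a ratio over 5 (32-fold), and 60 of these stood on the lists of secreted plasma proteins. Over 7 (128-fold) there were 51 such genes, 30 of them secreted. The largest was Slc27a5, which joins bile acids to coenzyme A, at 9.61, 10.12, 9.45 and 9.82 in pools 5 to 8, in that order here and below. This is an 862-fold higher signal in liver (SE 0.12 on the log2 scale, adjusted p = 5.68e-08, limma). Fabp1, the liver fatty acid binding protein, gave 9.42, 9.16, 9.42 and 9.31. Apoc1 (9.42), a small apolipoprotein, and Sult2a6 (9.42), a sulfotransferase for bile acids and steroids, stood beside it. Every pool lay far above 0 for each of these genes, with little spread between pools.

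In the other direction the measured ratios were smaller. Only 7 genes measured in both channels were called lower with a ratio under -5, against 173 called higher over 5. These counts leave out 4442 genes with no liver signal above background, but only 193 with no reference signal. Median background was 68 to 73 in Cy5 and 19 to 20 in Cy3, so the 2 directions were not measured alike. S100a6, a calcium-binding protein common in dividing and motile cells, was lowest at -6.42, -5.85, -6.38 and -5.97, a 71.4-fold higher signal in the reference (adjusted p = 3.42e-07, limma). Its relative S100a4 gave -5.49, -5.46, -5.60 and -5.47. Anxa1, a membrane-binding annexin, followed at -5.34, -4.89, -5.27 and -4.99. The other genes of this rank included Gpr15lg (-5.83), Rhox5 (-5.07), a homeobox gene of germ-line and placental tissue, Fst (-4.72), which encodes the activin antagonist follistatin, Spp1 (-4.54), which encodes osteopontin, and the epithelial keratin Krt17 (-4.28).

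**Figure D2:**
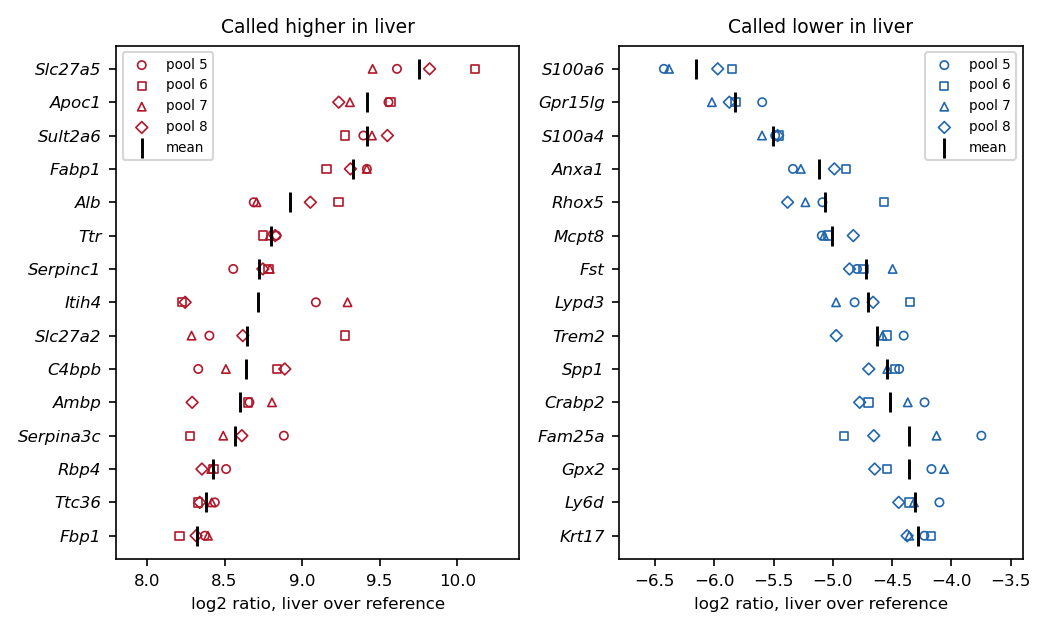
Log2 ratio of liver over reference in each of the 4 liver pools for the 15 genes called higher and the 15 called lower with the largest mean ratio, among genes with a symbol measured in both channels on all arrays. The symbols mark pools 5 to 8 and the bar their mean, and the panels have different axes. Slc27a5 is highest at 9.75 and S100a6 lowest at -6.16.

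Genes with no visible reference signal gave bounds. Slc10a1, the sodium-driven carrier that takes bile acids up from blood, read 7.99, 7.68, 7.83 and 7.74 in the 4 pools and was at least 221-fold higher in liver (adjusted p = 4.93e-08). Cyp3a23-3a1, a drug-metabolising P450, was at least 99.6-fold higher, and Cyp4a3, a fatty acid hydroxylase, at least 69.6-fold higher. The glucagon receptor Gcgr was at least 44.9-fold higher, and Slco1b2, an organic anion carrier, at least 45.8-fold higher. With no visible liver signal, Grem1, a BMP antagonist, was at least 20.7-fold lower by its kept probe (-4.37, against -2.30 for a dimmer one), and the chemokine Ccl2 at least 15-fold lower. The matrix proteoglycan Vcan was at least 8.16-fold lower (-3.03, against -2.30 for a dimmer probe). Adjusted p-values of these genes ranged up to 7.98e-06.

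Plasma proteins stood high together. All 21 tested plasma carriers (24 listed) and all 18 tested protease inhibitors (21 listed) were called higher, against 8.17% of all genes tested, with medians of 6.80 and 7.16. Alb, which encodes serum albumin, gave 8.69, 9.23, 8.71 and 9.05 (484-fold, adjusted p = 6.06e-08, limma). Pools 6 and 8 lay above pools 5 and 7 for Alb. Ttr, the carrier of thyroid hormone, hardly varied at 8.83, 8.75, 8.79 and 8.83. The lowest carrier was Agt at 4.11, the angiotensin precursor, and the lowest inhibitor was Serpinf1 at 2.85. Serpinc1, which encodes antithrombin, reached 8.72, and Serpina1, which encodes alpha-1-antitrypsin, 7.67.

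Of 18 tested coagulation genes (23 listed), 14 were called higher and 2 lower. The fibrinogen chains Fgb, Fga and Fgg gave 8.20, 8.13 and 7.51, prothrombin (F2) 5.93 and plasminogen (Plg) 6.43. Fgb was 8.41, 7.77, 8.60 and 8.03, with pools 5 and 7 above pools 6 and 8. On the other side was F3, tissue factor, which starts clotting on cells outside the vessel. F3 was at least 6.55-fold lower in liver, where it was not above background on any array. The activators Plat (-0.72) and Plau (-0.06) were not called.

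Complement followed the same course, with 18 of 21 tested members (24 listed) called higher and none lower (median 5.36). C4bpb (8.64) and C4bpa (7.96), the chains of the C4b-binding protein, stood above C9 (7.27), part of the membrane attack pore, and C3 (6.75), the central component. C1s (1.64) and C1r (1.51), the proteases of the first component, were also called, but under median centring (each array centred on its median in place of loess) they read 0.66 and 0.54 and were not. The members that were not called were the surface protectors Cd55 (-0.67) and Cd59b (0.46) and properdin, Cfp (0.80). With processed signals Cd55 was called lower at -3.35. A dimmer probe read 1.61 for C8a against 5.81 for the kept one, and dimmer probes of Masp1 read 0.96 and 2.01 against 4.03.

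Acute phase genes were split. Of 13 tested (14 listed), 9 were called higher, among them haptoglobin (Hp, 8.25), Saa4 (8.07), a serum amyloid A made without inflammation, and Apcs (7.61). Il1rn, the interleukin-1 receptor antagonist, was called lower at -1.89. Lcn2 (-0.78) and Socs3 (-0.16) were not called, and the iron hormone gene Hamp ranged from -1.05 to 2.02 over the pools.

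Apolipoproteins and their partners gave 18 of 23 tested members called higher (24 listed, median 4.8). Apob, the scaffold of very-low-density lipoprotein, stood at 7.58, and Apoa1, the main protein of high-density lipoprotein, at 6.89, 7.54, 6.98 and 7.38. Among the genes not called were Lpl (0.22), the lipase of vessel walls, Scarb1 (1.59), a receptor for high-density lipoprotein, which was called with slide position in the fit (adjusted p = 7.61e-05, limma) and under 6 other settings, and Pltp (0.84), which moves phospholipid between particles.

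Enzymes that modify drugs, hormones and toxins came next. Of 27 tested P450s of families 1 to 3 (33 listed), 22 were called higher and 1 lower (median 5.01). Cyp2e1, which oxidises ethanol, gave 6.90, 7.34, 7.06 and 7.16, and Cyp1a2, the constitutive aryl hydrocarbon receptor target of hepatocytes, 5.00, 5.46, 4.90 and 5.34. Cyp1a1, its inducible relative, was above background in liver on 3 arrays and in the reference on none, at 1.02, 0.30, 0.71 and 1.55, and was not called, though it read 3.93 and was called with processed signals. Cyp3a9 ran opposite to its family and was at least 3.79-fold lower in liver. Cyp2c7 was called at 3.06 but read 3.76 and 4.07 in pools 5 and 7 against 2.55 and 1.85 in pools 6 and 8, and those positions differed (adjusted p = 0.00305, limma).

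Most of the tested conjugating enzymes were called higher. Of 20 tested glutathione transferases (23 listed), 16 were called higher and 2 lower. The alpha class enzyme Gsta2 gave 7.70, 7.36, 7.2 and 7.58, whereas Gstp1, the pi class enzyme typical of fetal and transformed cells, gave -3.15, -3.02, -3.22 and -3.23. The pools of these genes did not come near each other across 0. Gstm5 (-1.27) was the other lower member. Of 15 tested glucuronosyl and sulfotransferases (27 listed), 12 were called higher, led after Sult2a6 by Ugt2b15 (6.57) and Ugt2b1 (6.45), and Sult1c2 was called lower at -1.68. Aldh3a1, an aldehyde dehydrogenase of cornea, stomach and tumours, was lower at -3.33, and 25 of 33 tested alcohol, aldehyde, flavin and ester enzymes (42 listed) were higher, with Ces1c at 7.02. Probes of these families, such as Cyp2d, Ugt2b, Sult2a and Gsta, may also bind near-identical relatives, which was not checked.

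Bile acid genes were called higher in 15 of 18 tested cases (20 listed, median 4.10). Beside Slc27a5 and Slc10a1 they included Baat (7.48), which attaches glycine or taurine to bile acids. Cyp7a1, the rate-limiting enzyme of bile acid synthesis, gave 5.51, 4.63, 4.82 and 4.91 and was at least 27.7-fold higher in liver. Abcb11, the export pump for bile salts, was at least 17.0-fold higher. Nr1h4, the bile acid receptor FXR, stood at 5.07, though its dimmer probe read 1.14. Of 38 tested carriers (46 listed), 21 were called higher and 4 lower, the latter being Slc2a1 (-2.86), the drug exporter Abcc1 (-1.97, with dimmer probes at -2.01 and -0.35), Slco4a1 and Slc7a11, the cystine carrier. The last 2 of these were not above background in liver.

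Nitrogen metabolism was high throughout. Of 14 tested genes of the urea cycle and ammonia handling (18 listed), 11 were called higher, with Arg1, the enzyme that releases urea, at 7.63, 8.41, 7.73 and 8.22 and Cps1, the entry enzyme, at 3.32, 3.20, 3.12 and 3.65. Arg1 was higher in pools 6 and 8 than in pools 5 and 7 (adjusted p = 0.00863 between positions). Otc (6.61), measured in the reference on 3 arrays, Ass1 (3.92) and Asl (3.90) completed the cycle. Gls2, the liver glutaminase, was higher at 3.66.

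Of 39 tested genes of amino acid breakdown (44 listed), 30 were called higher and 2 lower. Tyrosine and tryptophan enzymes led, with Hpd at 6.85, Kynu at 5.47, Tdo2 at 5.32 and Hgd at 5.29. The lower genes were Bcat1, at least 9.90-fold lower, and Bcat2 (-1.62), the transaminases that start the breakdown of branched-chain amino acids and are known to be scarce in hepatocytes. The next enzyme of that route was higher, with Bckdha at 2.60 and Bckdhb at 2.55, though under median centring they read 1.61 and 1.51 and were not called. In the methionine cycle 13 of 21 tested genes (24 listed) were called higher, among them Bhmt (6.05), Gnmt (6.01) and Mat1a (5.75). Mthfd2 (-2.88), a mitochondrial folate enzyme of dividing cells, and Mat2a (-1.69, with a dimmer probe at -0.37) were called lower.

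Fat burning was more uniform than fat synthesis. Of 41 tested genes of fatty acid oxidation and ketogenesis (42 listed), 34 were called higher and 1 lower. The single lower gene was Oxct1, the enzyme that uses ketone bodies in other tissues, at -2.32, -2.39, -2.46 and -2.32. Of 22 tested genes of fatty acid and triglyceride synthesis (26 listed), 7 were called higher and 1 lower. The highest were Dgat2 (4.62), the last step of triglyceride synthesis, and Thrsp (4.0), a lipogenic regulator. Scd2, the desaturase of brain and cultured cells, was lower at -4.18, -4.41, -4.21 and -4.30, while the liver form Scd varied from -1.19 to 0.84 and Fasn, fatty acid synthase, from -1.87 to 0.49, neither called.

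In cholesterol synthesis the liver pools differed. Its 25 genes had medians of 1.60, -0.27, 0.97 and 1.79 in pools 5, 6, 7 and 8, and 23 of the 25 read lowest in pool 6, as did 28.9% of all genes tested. Pool 6 was also lowest for 17 of 22 genes of fatty acid and triglyceride synthesis. The same held for 17 of 28 genes of folding and secretion and 13 of 21 of the methionine cycle, but for 1 of 14 urea cycle genes. Hmgcs1, which makes the precursor of mevalonate, gave 3.66, 0.70, 2.09 and 3.81, a spread of 1.47 (SD, n = 4) against a median SD of 0.16 over all genes. Sqle, which opens the sterol branch, gave 1.25, -1.94, 0.18 and 1.1, and Msmo1 2.26, -1.38, 0.91 and 1.98. Pool 6 lay below the other 3 pools for each of these genes, and without it Hmgcs1 was called at 3.19 (adjusted p = 0.0036, limma). Pool 8, at the same slide position as pool 6, lay with pools 5 and 7. With all pools 5 of the 25 were called higher (among them Nsdhl, Ebp, Sc5d and Hsd17b7), without pool 6 the count was 11, and without pool 5, 7 or 8 it was 3 or 4. It was 13 with pools 5 and 7 alone and 4 with pools 6 and 8 alone. The group median of 0.94 became -0.04 when arrays were centred on their median in place of loess. Less the median of all genes, it was 1.02 with loess and 0.47 with median centring. Of the 10 genes with the largest SD among those with a symbol and above background in all liver pools, 9 were members of this group.

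**Figure D3:**
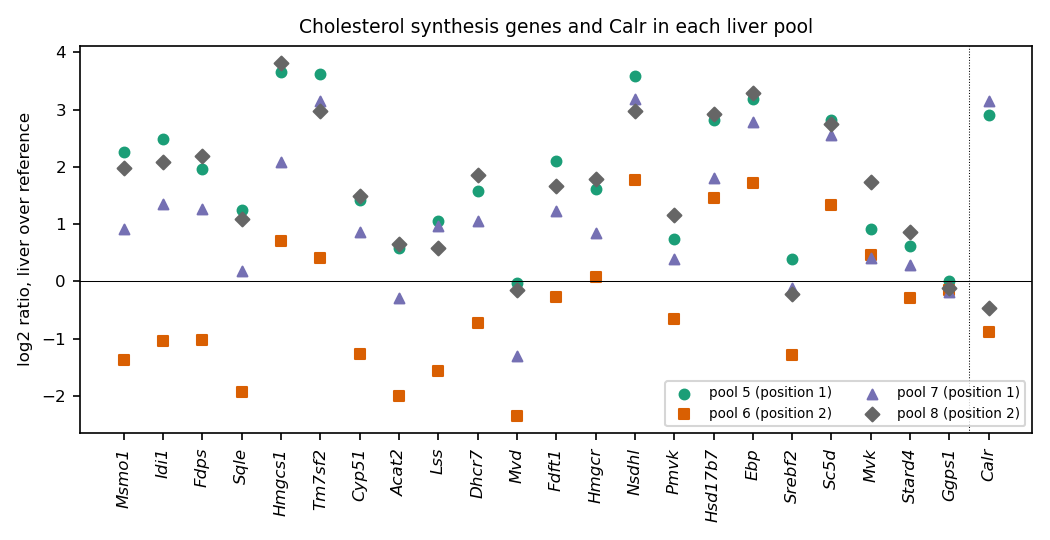
Log2 ratio of liver over reference in each pool for 22 of the cholesterol synthesis genes, ordered by their SD, and for Calr at the right. Pool 6 is lowest for 20 of the 22 genes drawn, whereas Calr splits by slide position, with pools 5 and 7 near 3 and pools 6 and 8 below 0.

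The remaining gene of that rank was Calr, a calcium-binding chaperone of the endoplasmic reticulum, at 2.91, -0.88, 3.15 and -0.47. Its ratio split by slide position (3.03 against -0.67, adjusted p = 0.000145, limma) and it was not called. After subtracting background, its reference signal averaged 4629 (SD 3737 over arrays) and its liver signal 3461.5 (SD 1691). The reference signal thus varied more between arrays than the liver signal did, and why was not tested. Of the 28 tested genes for folding and secretion (32 listed), 13 differed between positions, against 22.1% of all genes, 9 of them, such as Pdia4 (1.65 against 0.25), higher in pools 5 and 7 and 4 higher in pools 6 and 8. Other groups had such shares too, with 13 of 25 citric acid cycle genes, 11 of 21 complement genes and 7 of 14 urea cycle genes differing. The 25 cholesterol genes had 0, but pools 6 and 8, at the same position, lay far apart in them (medians -0.27 and 1.79). Such spread within a position hides a difference between positions, so the 0 does not show that there was none. Hspa5 read 0.83, 0.97, 0.84 and 1.04. In the folding and secretion group Mcfd2 (2.30) and Dnajc3 (2.21) were called higher, 2 of 28 against 8.17% of all genes tested. Without pool 6 the count was 4, and the group median of 0.61 turned to -0.35 under median centring. Less the median of all genes, it was 0.69 with loess and 0.16 with median centring.

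Glucose metabolism split by direction of the pathway. Of 27 tested genes of gluconeogenesis, glycogen and fructose or galactose use (28 listed), 17 were called higher and 1, Pck2, lower (median 3.10). Of 23 glycolysis genes, all tested, none was called higher and 11 were called lower (median -1.26). Under median centring 18 were called lower, against 4232 of all 16732 genes tested. Fbp1, which is needed only for making glucose, gave 8.37, 8.21, 8.39 and 8.32, and G6pc1, which releases it, stood at 5.18, with a dimmer probe at 2.89. The lactate exporter Slc16a3 gave -3.70, -4.33, -3.85 and -4.25, and Pfkp, the platelet phosphofructokinase, -3.84, -3.72, -3.90 and -3.80. Gapdh, often used as a constant control, read -0.46, -0.60, -0.57 and -0.47 and was not called, but was called lower under median centring (-1.76).

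Many enzymes exist as a liver form and a form of other tissues, and these tended to part. Of 45 tested genes listed as tissue forms (47 listed), 16 were called higher and 13 lower (median -0.27). Only 12 chosen sets of a liver form and its relatives were compared as pairs. In 10 of these 12 pairs the liver form was called higher, and in 5 of those 10 another form was also called lower. Slc2a2, the glucose carrier of hepatocytes, gave 7.48, 6.95, 7.16 and 7.13, and Slc2a1, that of most cultured cells, gave -2.88, -2.89, -2.85 and -2.84. Their pools lay far apart on either side of 0. The other 4 pairs of this kind were Mat1a (5.75) and Mat2a (-1.69), Gys2 (4.70) and Gys1 (-2.33), Pck1 (3.83) and Pck2 (-1.78), and Pklr (3.20) and Pkm (-3.20). Acsl4 (2.39) was the non-liver form called higher. Pygl (1.23), the glycogen phosphorylase of liver, and Pfkl (-1.17), its phosphofructokinase, were not called. With slide position in the fit Pygl was called higher (adjusted p = 0.00998, limma) and Pfkl lower (adjusted p = 0.0446, limma). Dimmer probes gave smaller ratios for Pkm (-0.39), Gys1 (-0.16) and Aldoc (-1.0) than the kept ones (-3.20, -2.33 and -3.19). The same held for Mat2a, with a dimmer probe at -0.37 against -1.69.

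**Figure D4:**
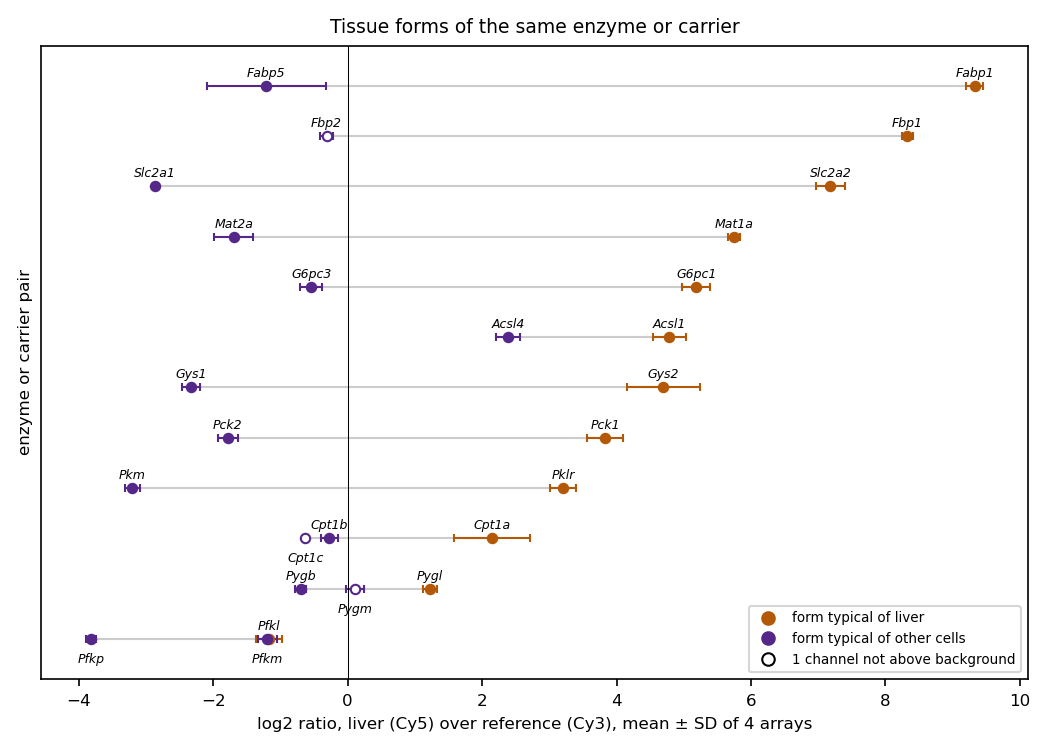
Mean log2 ratio of liver over reference with SD over 4 arrays for the liver form (orange) and other forms (purple) of 12 enzymes and carriers, open where 1 channel was not above background. Liver forms lie to the right of their relatives in every line but the last, where Pfkl (-1.17) and Pfkm (-1.19) overlap.

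Genes of the cell's shared machinery were mostly not called, but only the proteasome lay near the middle of all genes. The lower and upper quartiles of all genes tested were -0.45 and 0.37. None of 65 tested cytosolic ribosomal proteins (69 listed) and none of 27 tested proteasome subunits (28 listed) was called. The ribosomal genes had a median of -0.71 and ran from -1.33 to 0.30, and under median centring 63 of them were called lower. The proteasome median was -0.00, with 3 subunits called lower under that setting. Of all 16732 genes tested, 4232 were called lower under median centring. Subunits of the respiratory chain and ATP synthase had a median of 1.14 in 38 tested genes (40 listed), of which 10 were called higher, led by Ndufa4 (1.76). The muscle subunit Cox6a2 was called lower there, at least 2.61-fold. That count of higher genes was 0 under median centring, 19 with the scanner's processed signals, 4 with the deposited values and 3 without pool 8. In the citric acid cycle 10 of 25 tested genes (26 listed) were called higher, led by pyruvate carboxylase (Pc, 3.70) and Idh1 (2.87), and 3 of them under median centring.

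Dividing cells were the other pole. Of 27 tested genes of mitosis (35 listed) 14 were called lower and none higher, against 5.94% of all genes tested, and of 38 tested genes of G1/S and DNA replication (42 listed) 10 were called lower and none higher. Cdk1, the kinase that drives entry into mitosis, gave -2.56, -2.26, -2.52 and -2.41 (5.42-fold higher in the reference, adjusted p = 1.38e-05, limma). Plk1, a mitotic kinase, gave -2.36, -2.38, -2.36 and -2.58, and Rrm2, which makes deoxynucleotides, -2.71, -3.10, -2.53 and -3.02, with a dimmer probe at -0.91. The ratios of these genes were modest beside those of liver genes. Cdkn2a, the locus of the p16 and Arf inhibitors, was lower at -2.34 and the growth inhibitor Cdkn1c, active in fetal tissue, higher at 2.07. Myc (-2.18) and the nucleolar gene Npm1 (-2.14) were lower, and Myc read -1.29 in pool 6 against -2.12 to -2.74 in the others. With median centring 23 mitosis and 26 replication genes were called lower, against 4232 of all 16732 genes tested.

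Promoters from both poles are shown, since members of each group moved together. The first 120 bases before the start of Alb (chr14:17906980-17907099, minus strand) and Fgb (chr2:170700876-170700995, minus strand), called higher, and Cdk1 (chr20:19265173-19265292, plus strand) and Ccnb1 (chr2:33655226-33655345, minus strand), called lower, are given 5′ to 3′ from RefSeq on GRCr8. Capitals mark GTTAAT, the core bound by the liver factor HNF1, CCAAT, the core bound by NF-Y, and TTTGAA, the cell cycle homology region. CCAAT was searched in every stretch, GTTAAT only in those of genes called higher and TTTGAA only in those called lower, each on both strands.
Alb: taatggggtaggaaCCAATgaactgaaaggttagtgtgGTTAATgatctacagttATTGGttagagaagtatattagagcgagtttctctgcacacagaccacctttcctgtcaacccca
Fgb: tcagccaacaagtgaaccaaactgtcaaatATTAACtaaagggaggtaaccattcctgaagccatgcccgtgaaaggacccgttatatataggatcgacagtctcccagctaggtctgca
Cdk1: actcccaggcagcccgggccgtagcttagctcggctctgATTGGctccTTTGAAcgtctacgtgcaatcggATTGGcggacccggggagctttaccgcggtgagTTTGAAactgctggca
Ccnb1: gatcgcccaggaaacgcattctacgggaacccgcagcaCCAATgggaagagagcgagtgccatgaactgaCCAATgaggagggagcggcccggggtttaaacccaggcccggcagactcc
Alb and Fgb each hold 1 GTTAAT in this stretch, whereas the same stretch of Serpina1, also called higher and not printed, holds neither GTTAAT nor CCAAT. Alb, Cdk1 and Ccnb1 each hold 2 CCAAT, and Cdk1 also holds 2 TTTGAA. These are matches of letters and not tested sites.

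Over longer promoters, 250 bases before to 50 after the start, GTTAAT on either strand stood in 8.46% of 875 genes called higher, 2.47% of 526 called lower, 4.57% of 7215 not called and 7.37% of all 27457 promoters in the table. The site CAAAGTCCA, bound by HNF4, stood in 14 of the 875 (1.60%), in none of the 526 and in 0.375% of all promoters. The core TTGCNNAA of C/EBP factors stood in 13.5%, 9.51%, 8.51% and 10.5%, in the same order. CGCG, a mark of CpG-rich promoters, stood in 44.8% of genes called higher, 61.0% of those called lower and 68.5% of those not called, and in 38% of all promoters. CCAAT stood in 43.9% of genes called higher, 36.1% of those called lower, 37.5% of those not called and 37.7% of all promoters, so it was not more frequent in the lower group. TTTGAA stood in 12.7%, 12.9% and 11.8% of these groups and in 18.1% of all promoters. TTTCGCGC, an E2F site, stood in 0.457%, 0.760%, 0.651% and 0.342%. These shares are descriptions without a test, and genes in clusters share promoter sequence by descent.

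Genes of cell shape, matrix and attachment were lower with the dividing cells. Of 39 tested genes of actin, tubulin and intermediate filaments (42 listed) 18 were called lower and none higher. Vim, the filament protein of mesenchymal cells, gave -3.19, -3.30, -3.27 and -3.31, Tuba1a -3.20 and Actb, another common control gene, -1.48, though Actb was not called with a normexp offset of 16 (-1.24) or with processed signals (-1.18). The keratins of hepatocytes, Krt8 (-0.38) and Krt18 (0.86), were not called, and Krt18 was higher in pools 5 and 7 (1.26 against 0.47, adjusted p = 0.00371 between positions). Of 33 tested matrix genes (45 listed), 15 were called lower and 1 higher. Col1a1, the main collagen of scar and bone, gave -2.28, -2.04, -2.35 and -1.98, and Timp1, which blocks matrix proteases, -3.63. The higher one was Col18a1 at 1.93, a basement membrane collagen made by hepatocytes, which was not called under median centring (0.97). Fn1, which encodes fibronectin of plasma and of matrix, read 1.1 and was not called (1.29 and called with processed signals).

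Surface proteins listed as typical of cultured cells gave 12 lower and 3 higher of 36 tested (41 listed). Lgals1 (-4.02), a galectin, S100a10 (-4.05) and Anxa2 (-3.91), which form a complex at the membrane, and Cav1 (-3.67), the coat of caveolae, were lower. The higher genes were Egfr (2.51), the receptor for epidermal growth factor, which is abundant on hepatocytes, Nt5e (1.99), a nucleotidase, and Eng (1.34), an endothelial receptor. Under median centring Nt5e (1.09) and Eng (0.77) were not called. Cd44 was lower at -3.27 by its kept probe, but 3 dimmer probes read between -0.46 and -0.25. With median centring the lower calls rose to 29 for the cytoskeleton, 24 for the matrix and 21 for the surface list. Those over all 16732 genes tested rose from 994 to 4232.

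Transcription factors of liver were called in part. Of 34 tested (42 listed), 13 were called higher and 2 lower, with a median of 0.86. Of all genes tested, 8.17% were called higher and 5.94% lower, so the 2 lower calls are about that share. Nr1i2, the drug sensor PXR, stood at 5.01, Creb3l3, which is active in fasting, at 4.22, Nr0b2, a repressor induced by FXR, at 4.08 and Onecut1 at 3.24. Cebpa (1.53), measured in the reference on 2 arrays, and Foxa2 (1.45, and 0.40 and not called under median centring) were called, whereas Ppara, the receptor for fatty acids, read 0.38, 1.13, 0.86 and 1.85 and was not. Ahr, the aryl hydrocarbon receptor, was not called at 0.64. With processed signals Ppara read 3.08 and Ahr 2.09, and both were called. Cebpd (-1.64) and Pparg (-1.30), the factors of fat cells and inflammation, were lower.

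Some genes of the fetal liver were still high at this age. Afp, the fetal relative of albumin, gave 8.22, 8.02, 8.20 and 8.44 (298-fold, adjusted p = 5.40e-08, limma), and the imprinted RNA H19 gave 7.16, 7.33, 7.23 and 7.57. Igf2, the fetal growth factor, varied more at 3.81, 3.45, 2.39 and 3.98. In all, 6 of 21 tested fetal genes (32 listed) were called higher and 3 lower, the latter being Gstp1, Aldoc and Aldoa. Gpc3, a fetal and tumour surface protein, was near 0 in every pool (-0.02 to 0.14). Whether these genes are on their way down cannot be seen from 1 age.

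The axis of growth hormone and insulin-like growth factors held 7 higher and 1 lower of 22 tested genes (23 listed). Its median of 0.36 became -0.03 under median centring, which lowered the median of all genes as well. Less that median of all genes, the group stood at 0.43 with loess and 0.48 with median centring. Igfals (5.56), which stabilises the factor in plasma, and Igf1 (3.83, 3.52, 3.54 and 3.63) were higher, as were the growth hormone receptor Ghr (2.99) and Igfbp2 (3.21). Igfbp2 read 4.12 in pool 6 and 2.36 in pool 7. Igfbp6, made by fibroblasts, was lower at -3.0.

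Genes known to differ between the livers of adult male and female rats were in part present at day 21 in these males. Of 31 listed, 18 were tested and 15 of these were called higher. Cyp2c12, a female form in adults, read 5.12, 4.80, 6.03 and 5.01 and was at least 32.9-fold higher in liver. Cyp3a2, a male form in adults, read 8.78, 9.36, 9.12 and 9.45 and was measured in the reference on 3 arrays. The adult male forms Cyp2c11, Cyp2c13 and Cyp2a2 were not well above background in either channel and gave no ratio. Sult1c2 and Cyp3a9 were the lower genes.

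Hepatocyte genes of both lobule zones were high. Of 18 tested pericentral genes (20 listed) 12 were called higher and of 19 tested periportal genes (20 listed) 17, with none lower in either. Pericentral Cyp2e1, Lect2 (6.34) and Gulo (3.43), the vitamin C enzyme, were called, but Glul, glutamine synthetase of the cells next to the central vein, read 0.48, 0.65, 0.84 and 0.96 and was not (2.52 and called with processed signals). Periportal Hsd17b13 (5.03), Sds (5.21), Hal (3.89) and Gls2 were called. Bulk RNA cannot tell fewer cells of a type from less RNA in each cell.

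Markers of the other cells of liver were mixed. Of 17 tested Kupffer cell and macrophage genes (18 listed) 9 were called higher and 2 lower. Clec4f, a lectin of Kupffer cells, gave 6.30, 6.18, 6.45 and 6.15, and the complement starters C1qa, C1qb and C1qc gave 5.49, 4.33 and 3.59. Lyz2, the lysozyme of many phagocytes, was lower at -3.63, -2.82, -3.17 and -2.93, with Fcgr3a at -1.60. Of 11 tested endothelial genes (21 listed), 5 were called higher, among them Kdr (5.80), the receptor for vascular endothelial growth factor, and the sinusoidal genes Dnase1l3 (3.59) and Lyve1 (at least 14.3-fold). Of 16 tested stellate cell genes (18 listed), 6 were called higher and 1, Dcn (-2.08), lower. Lrat, which stores vitamin A as an ester, was at least 11-fold higher, and Col14a1 stood at 3.43, with a dimmer probe at 1.0. Of 9 tested bile duct genes (15 listed), 4 were called lower, among them Krt7 (-2.68), and 1, Onecut1, higher.

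**Figure D5:**
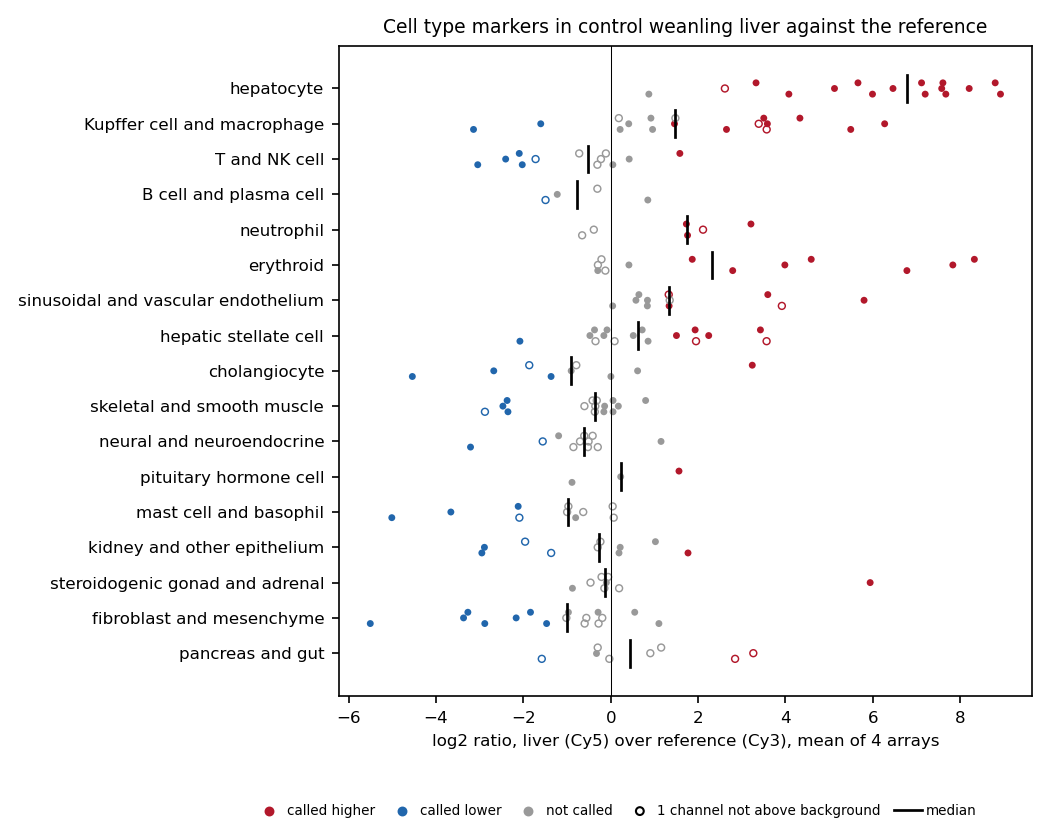
Mean log2 ratio of liver over reference for each tested marker of 17 cell types (1 dot per gene, bar at the median), open where 1 channel was not above background. Hepatocyte markers lie furthest right with a median of 6.79, and markers of fibroblasts, mast cells and bile ducts have medians of -0.99, -0.98 and -0.90.

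Blood cells left their own traces. Of 12 tested erythroid genes (18 listed) 7 were called higher, with the beta globins Hbb (8.32), Hbb-b1 (7.83) and Hbb-bs (6.78), whose probes may bind each other's transcripts, and Alas2 (4.59), the heme enzyme of red cell precursors. Hbb read 7.91, 8.52, 8.23 and 8.64. The erythroid regulators Gata1 (-0.29) and Klf1 (-0.12) were not called and were not above background in liver, as was the case for Rhag (-0.21). With processed signals Gata1 was called lower at -2.04. Their part in the globin signal, from blood in the tissue or from cells forming in it, was not tested. Of 6 tested neutrophil genes (13 listed) 4 were called higher, S100a9 (3.21), Np4, S100a8 (1.76) and Camp (1.73). Under median centring S100a8 (0.91) and Camp (1.09) were not called.

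The reference stood out in some markers of immune and other lineages. Of 12 tested T and NK cell genes (18 listed) 5 were called lower, among them the T cell receptor parts Cd3g (-2.96, -2.95, -3.04 and -3.23) and Cd3d (-2.40), and Gzma (1.58), a granule protease, was called higher. Of 10 tested mast cell and basophil genes (12 listed) 4 were called lower, with the granule protease Mcpt8 at -5.09, -5.04, -5.07 and -4.83 and Mcpt1 at -3.66. Of 15 tested muscle genes (19 listed) 4 were called lower and none higher, with embryonic myosin Myh3 at least 7.35-fold lower. Of 10 tested genes of kidney and other epithelium (16 listed) 4 were called lower and 1 higher. The lower ones included the keratins of basal epithelium Krt5 (-2.95) and Krt14 (-2.89). Neural genes gave 2 lower of 11 tested (22 listed), and pituitary genes 1 higher and none lower of 3 tested (11 listed). Of 16 tested fibroblast genes (17 listed) 7 were lower and none higher. Steroid-making cells gave 1 call, Cyp17a1 (5.94), which young rat liver is known to express, while Insl3 (-0.10) and Cyp11a1 (-0.21) were not called. Of 8 tested pancreas and gut genes (17 listed), Tff3 and Fabp2 were called higher, at least 9.60-fold and 7.19-fold, and Cela1 lower.

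Some genes higher in liver were neighbours on the chromosome. In the order of the RefSeq table, counting only genes tested, 40 runs of at least 3 neighbours were all called higher and held 144 genes, 13.5% of those called higher with a symbol, and 4 runs holding 15 genes were all called lower. The longest, of 6 genes, were the kininogen and fetuin group on chromosome 11 (Kng1, Kng2, Kng2l1, Hrg, Fetub and Ahsg), a run on chromosome 6 of Ifi27l2b with the serpins Serpina10, Serpina6, Serpina1, Serpina11 and Serpina4, and a run on chromosome 7 of Ndufa6 with 5 Cyp2d genes. Shorter ones were the fibrinogen genes with Tdo2 and Lrat on chromosome 2, the apolipoproteins Apoa1, Apoc3, Apoa4 and Apoa5 on chromosome 8, and Apoc2, Apoc4, Apoc1 and Apoe on chromosome 1. Afm, Afp and Alb, which are related genes, adjoined on chromosome 14. The longest lower run held 6 mast cell protease genes on chromosome 15, among them Mcpt8 and Mcpt1. Related neighbours can bind each other's probes, and the part of this in the runs was not tested.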

How the data were processed

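RNA from male rat liver and a cell-line reference was hybridised to Agilent 2-colour arrays. Per the file headers, version 11.0.1.1 of Agilent's Feature Extraction software turned the scans into the deposited intensities, namely median signals, their backgrounds and processed signals. Median signals stood in for the mean signals first planned. The authors also deposited log2 ratios, whose scale and direction matched loess ratios without background correction (Pearson r = 0.998, slopes of 0.996 to 1, column medians of -0.0389 to -0.0326). How those ratios were normalized is not stated in the labels or headers.

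From the median signals, limma 3.58.1 in R 4.3.3 gave ratios after normexp correction (offset 50) and loess within each array. An array held 58717 spots beside 4259 control spots, which had weight 0 in loess, and outlier spots (771 to 956 an array) were left out. No spot was saturated. Spots of a probe were averaged, and the probe with the brightest signal stood for its gene. An intercept was fitted to the 4 arrays and tested with treat against a log2 difference of 1, with Benjamini-Hochberg adjustment. The number of arrays limits the precision. For a channel dim on all arrays, the lower bound sets the bright group's mean against the higher of that probe's own signal and the lowest signal well above background, per channel, and stays open to dye bias. Gene symbols came through RefSeq accessions (GRCr8), and 12362 probes had none. Some genes of the lists count in the totals but are not reported here by name. The genes described were the largest ratios, the largest SDs and members of lists, chosen, as were the lists, with earlier results of these data known. In simulated ratios for 16732 genes, the test recovered 45%, 89% and 100% of genes shifted by 1.5, 2 and 3, and none of 16432 genes that were not shifted. The genes not shifted lay at 0, below the minimum difference of 1, so the simulation cannot show false calls near that difference. Dye bias and loess error were not simulated. Alternatives covered background, centring, filters, probes, variance, slide position, the minimum difference and each pool.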

Additional observations from a re-analysis of the deposited data

Results flagged for a closer look

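Of 247 genes named here, 5 had 1 liver pool set apart from the other 3 by more than Dixon's limit for outliers, which chance passes in about 1 of 20 groups of 4 values. Agt read 3.93 in pool 6 against 4.15 to 4.2 in the others. Gzma, the granule protease, was highest in pool 6 at 1.94 against 1.4 to 1.49. The sinusoidal marker Lyve1 was lowest in pool 6 at 3.49 against 4.03 to 4.13. The mitotic kinase Plk1 read -2.58 in pool 8 against -2.38 to -2.36. Sds, the serine dehydratase of periportal cells, was highest in pool 7 at 5.76 against 4.97 to 5.10.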

How the results depend on the processing

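The counts of 1367 higher and 994 lower genes depended on how arrays were centred. Median centring in place of loess gave 803 higher and 4232 lower, so that 15.9% of calls were higher against 57.9%, with the median of all genes moved by -0.437. The processed signals gave 2213 and 3572 (38.3% higher, a shift of -0.402). A minimum difference of 0 gave 4869 and 6135, and one of 2 gave 677 and 248. Other alternatives stayed within 1.5 times of both counts, and leaving out each pool gave 1234 to 1387 higher and 829 to 953 lower. A gene called with loess kept its sign in each alternative that tested it. Quantile scaling of the mean signal left the ratios as they were. Median centring ended the calls of 19 named genes, namely Acsl4 (1.34), Bckdha (1.61), Bckdhb (1.51), C1r (0.54), C1s (0.66), Camp (1.09), Col18a1 (0.97), Dnajc3 (1.20), Ebp (1.71), Eng (0.77), Foxa2 (0.40), Hsd17b7 (1.25), Ifi27l2b (1.1), Mcfd2 (1.3), Ndufa4 (0.67), Ndufa6 (0.55), Nt5e (1.09), S100a8 (0.91) and Sc5d (1.33), and called 6 others lower (Gapdh, Krt8, Lcn2, Pfkl, Pfkm and Plat). Processed signals called 13 more named genes and ended the call of Actb, and slide position in the fit called Hmgcs1, Pfkl, Pfkm, Pygl and Scarb1 and ended no call of a named gene. Among named genes, Gstm5 and Pparg lost their call without each of 3 pools. Gstm5 then read -1.28 to -1.22 (without pools 5, 7 or 8), and Pparg -1.32 to -1.26 (without pools 5, 6 or 7). Eng lost its call without pool 6 (1.33) or pool 8 (1.27), and Foxa2 (1.42), Hsd17b7 (2.03) and Slc7a11 (-1.30) without pool 8. Averaging all probes of a gene ended the calls of Cd44 (-1.10) and Mat2a (-1.03). The cause was not tested. No paired analysis was possible because only 1 group was used. Genes with no liver signal above background, 4442 of those tested, could be given only as bounds.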
